A study of Homo sapiens with 4 samples.

Results

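The genes described here are 37 human genes of homologous recombination and of the Fanconi anemia repair pathway, measured in SCC-15 cells. SCC-15 is an established line of tongue squamous cell carcinoma. The members were taken by name, and their probe sets, the groups of short probes that measure a transcript on the array, were those that the platform annotation gave to a single gene among them. This gave 87 probe sets of 33 genes, out of 49293 probe sets and 18132 genes in the table. BRCA2, RBBP8, FANCA and FANCD2 had no matching probe set and were not analysed here.

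Total RNA was profiled on 1-colour Affymetrix arrays in 2 groups of 2 samples. The cells were transfected 24 h after seeding with 30 nM of a microRNA mimic, a synthetic duplex that acts as the mature microRNA, or with the negative control miR-NC, and were collected 36 h later. Both groups are the same cell line with no other agent named in the labels. The series title and design text name the mimic as miR-762, whereas both mimic samples are labelled miR-585-5p. The group is called the mimic group below, and its identity is not settled here. Nothing in the labels says that replicates were separate cultures, so p-values here reflect only how far these arrays differ, and that spread may be technical.

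A microRNA guides its protein partners to messenger RNAs mainly through its seed, bases 2 to 8 counted from the 5′ end. The mature sequences of the 2 named microRNAs are shown because they would direct the cells to different targets. They are from RefSeq, build GRCh38.p14, 5′ to 3′, with the seed in capitals. miR-762 lies at chr16:30893951-30893972 on the plus strand and miR-585-5p at chr5:169263649-169263670 on the minus strand.
hsa-miR-762: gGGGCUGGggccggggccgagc
hsa-miR-585-5p: cUAGCACAcagauacgcccaga
Both have 22 bases. Their seeds, GGGCUGG and UAGCACA, differ, and their G and C content is 90.9% and 54.5%. No value below depends on which was used.

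Homologous recombination repairs broken or stalled DNA by copying an intact sister. The MRE11, RAD50 and NBN complex senses the end, nucleases and helicases trim it to single strands, BRCA1 with BARD1 and PALB2 bring in BRCA2, and the BCDX2 and CX3 complexes, RAD52 and the RAD54 proteins help the strand pair with its partner. The Fanconi pathway handles links between the strands of DNA. Its core complex and the conjugating enzyme UBE2T attach ubiquitin to FANCI and FANCD2, after which nucleases held by the SLX4 scaffold cut the link. Many of these genes are transcribed most in cells that are replicating DNA, and in carcinoma cells these pathways bear on the response to platinum drugs and radiation.

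The deposited values are RMA intensities on a linear scale, from 1.62 to 11401, with array medians of 17.2 to 17.5. Levels below are log2 of these intensities. Differences are the mimic mean minus the control mean on the log2 scale, with the moderated standard error (SE) from limma and n = 2 per group. Replicate arrays correlated at 0.998 (mimic) and 0.997 (control) over genes, and arrays of different groups at 0.991. Of the squamous epithelial markers, 8 of 10 had a probe set given to a single gene, and KRT6A and TP63 had none. All 8 were above the level filter, with mean log2 levels of 10.04 and 10.08 in the mimic samples and 9.77 and 9.69 in the controls. Fibroblast markers averaged 2.81 to 3.05 per array, with 3 of 6 below the filter (COL3A1, DCN and LUM). Of the leukocyte markers, 3 of 5 (PTPRC, CD3D and MS4A1) were below it. The other 2, CD68 and CD14, which are not limited to leukocytes, were above it and higher in the mimic samples. CD68 read 6.10 and 5.95 in the mimic samples against 5.75 and 5.62 in the controls, and CD14 read 5.38 and 5.34 against 5.00 and 4.66. All 4 endothelial markers were above it, with means of 4.14 and 4.19 in the mimic samples and 4.28 and 4.32 in the controls. The part of these markers in the results was not tested.

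More recombination and Fanconi genes were called higher than lower in the mimic samples, and most did not pass the test. The largest rises were those of the strand invasion cofactor RAD51AP1, of BRCA1 and of the helicase BLM. Of the 31 members tested, 12 were higher at an adjusted p under 0.05 and 2, RAD51B and RAD51C, were lower (limma, Benjamini-Hochberg over 14340 genes). The other 17 did not pass. RAD51C has probe sets of opposite direction, and by the mean of them it was higher, which would make the counts 13 higher and 1 lower. Calls in either direction came to 14 of 31 members, where 30.1% of all genes were called. Over all genes tested 17.7% were called higher and 12.3% lower, against 38.7% and 6.45% of the tested members. At a difference of at least 0.5, 7 members were higher and 1 was lower, where the shares of all genes were 8.32% and 2.09%. The members' median difference was 0.20 and that of all genes was -0.02.

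Each tested gene stands here by its brightest probe set outside the lowest 30% of probe sets (a log2 level of 2.83 or more). None of the 31 had a group mean below that level, so no member entered the test through 1 group alone. BRIP1, a helicase bound by BRCA1, and DNA2, a resection nuclease, had only dimmer probe sets and were not tested. BRIP1's brighter probe set read 1.94 and 1.87 in the mimic samples against 1.87 and 1.83 in the controls. That of DNA2 read 2.34 and 2.66 against 2.30 and 2.20.

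The mean log2 level over the 31 tested members was 6.14 and 6.16 in the mimic samples and 5.79 and 5.89 in the controls. Both mimic arrays lay above both control arrays for 24 members and below both for 4, with overlap in the remaining 3. For all genes 34.2% lay wholly above and 36.3% wholly below, 70.4% in all, so a lack of overlap alone is common in these data. The median SD of a member was 0.036 in the mimic group and 0.079 in the control group, against 0.048 and 0.064 over all genes. In RNA from whole cultures, more cells expressing a gene and more RNA per cell cannot be told apart.

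**Figure D1:**
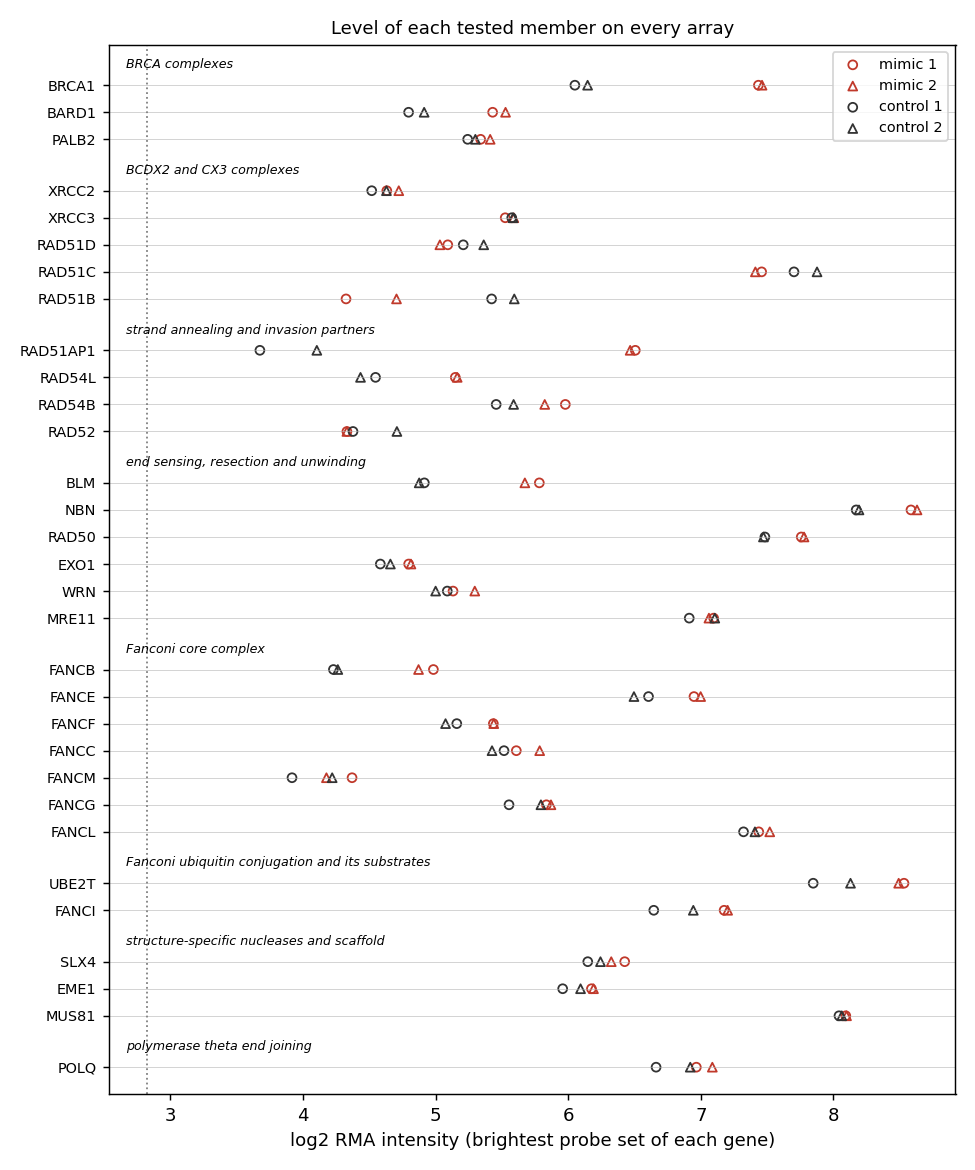
Log2 intensity of the 31 tested members on each of the 4 arrays, by role, with the level filter of 2.83 as a dotted line. RAD51AP1 and BRCA1 show the widest gaps between mimic (red) and control (black) symbols. RAD51B, RAD51C, RAD51D and RAD52 show controls above mimics.

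The calls rest on 4 arrays. Without mimic replicate 1 no member was called by limma, the lowest adjusted p was 0.0550 and 15 members (48.4%) had an unadjusted p under 0.05, as did 29.3% of all genes. Without mimic replicate 2 the count was again 0, the lowest adjusted p was 0.0551 and 13 members (41.9%) had an unadjusted p under 0.05, as did 29.8% of all genes. Without control replicate 1 the count was 3 (BRCA1, RAD51AP1 and RAD54L). Without control replicate 2 it was 6, these genes with BLM, UBE2T and FANCI. Over all genes the same omissions left 0, 0, 653 and 963 of 4310 calls. An exact permutation test of 2 against 2 cannot give a two-sided p below 0.333.

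For context, 5 genes of the cell cycle were read in the same arrays, of which 4 rose. CCNA2, cyclin A2, was 3.11 higher (8.65-fold, adjusted p = 0.000784), MKI67, a marker of cycling cells, 1.53 higher (2.88-fold, 0.00130), the replication clamp gene PCNA 0.95 higher (0.00379) and the helicase subunit MCM2 0.38 higher (0.0479). E2F1, which encodes a transcription factor of the S phase, differed by -0.34 and did not pass (0.0606). The part of the cell cycle in the members' differences was not tested.

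**Figure D2:**
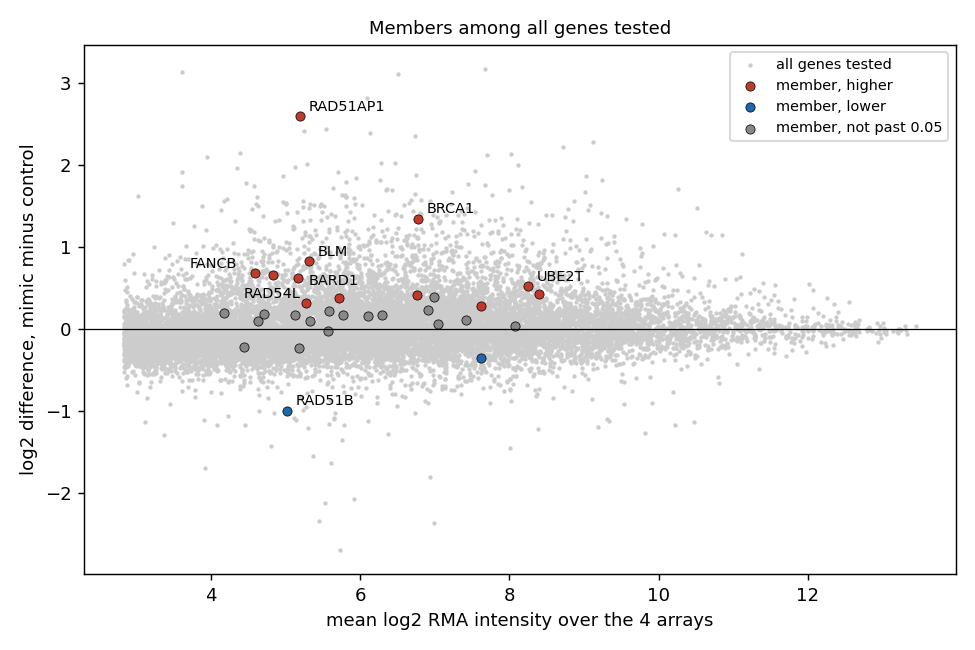
Log2 difference (mimic minus control) of every tested gene against its mean log2 level over the 4 arrays, with the 31 tested members coloured by call. RAD51AP1, at 2.60, lies near the top of all genes, most members lie a little above 0, and RAD51B, at -0.99, lies below.

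The BRCA1 complexes came to 3 tested members, of which 2 rose and none fell. BRCA1, a ubiquitin ligase that promotes resection, read 7.43 and 7.46 in the mimic samples and 6.05 and 6.15 in the controls. The groups were far apart next to the spread within each. The difference was 1.35 ± 0.064 (SE, 2.55-fold, adjusted p = 0.00107), rank 119 from the highest of 14340 genes.

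BARD1, the partner that BRCA1 needs to be stable, read 5.43 and 5.53 in the mimic samples and 4.80 and 4.91 in the controls. It rose by 0.62 ± 0.074 (SE, 1.54-fold, adjusted p = 0.00595). Again no control array reached a mimic array. PALB2, which links BRCA1 to BRCA2, differed by 0.10 with a 95% confidence interval of -0.06 to 0.27 and did not pass (adjusted p = 0.252).

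Among the proteins that anneal or invade strands, 3 of 4 rose. RAD51AP1, which stimulates joint molecule formation, had the largest difference of any member. It read 6.51 and 6.47 in the mimic samples and 3.68 and 4.11 in the controls. The controls sat closer to the level filter and spread more, with an SD of 0.30. The difference was 2.60 ± 0.15 (SE, 6.05-fold, adjusted p = 0.00130), rank 5 of all genes.

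RAD54L, a motor protein that remodels DNA during strand exchange, read 5.15 and 5.16 in the mimic samples and 4.55 and 4.43 in the controls. It rose by 0.67 ± 0.066 (SE, 1.59-fold, adjusted p = 0.00399). Its relative RAD54B rose by 0.38 (adjusted p = 0.0307), a call lost after a further quantile normalization (0.28, adjusted p = 0.0637). RAD52, which anneals complementary single strands, differed by -0.21 and did not pass (adjusted p = 0.226). With the mean of its probe sets it was called lower (-0.23, adjusted p = 0.0448).

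The BCDX2 and CX3 complexes, which assist strand exchange, have 5 members, which went the other way or did not pass. By their brightest probe sets 2 were lower and none was higher, with a median difference of -0.22. By the mean of the RAD51C probe sets the count would be 1 lower and 1 higher. RAD51B read 4.33 and 4.71 in the mimic samples and 5.42 and 5.59 in the controls. All mimic values were below all control values, although the mimic replicates of RAD51B lay further apart (SD 0.27) than those of any other tested member. RAD51B fell by 0.99 ± 0.14 (SE, 1.99-fold, adjusted p = 0.0100), rank 39 from the lowest of all genes.

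RAD51C, which is in both complexes, was lower by its brightest probe set, at 7.46 and 7.41 in the mimic samples and 7.70 and 7.88 in the controls. That difference was -0.35 ± 0.080 (SE, adjusted p = 0.0306). Its other probe sets went the opposite way, as described below, so RAD51C has no settled direction. RAD51D differed by -0.22 (adjusted p = 0.0827), XRCC2 by 0.10 and XRCC3 by -0.02, and none of these 3 passed. After a further quantile normalization RAD51D was called lower (-0.29, adjusted p = 0.0425).

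**Figure D3:**
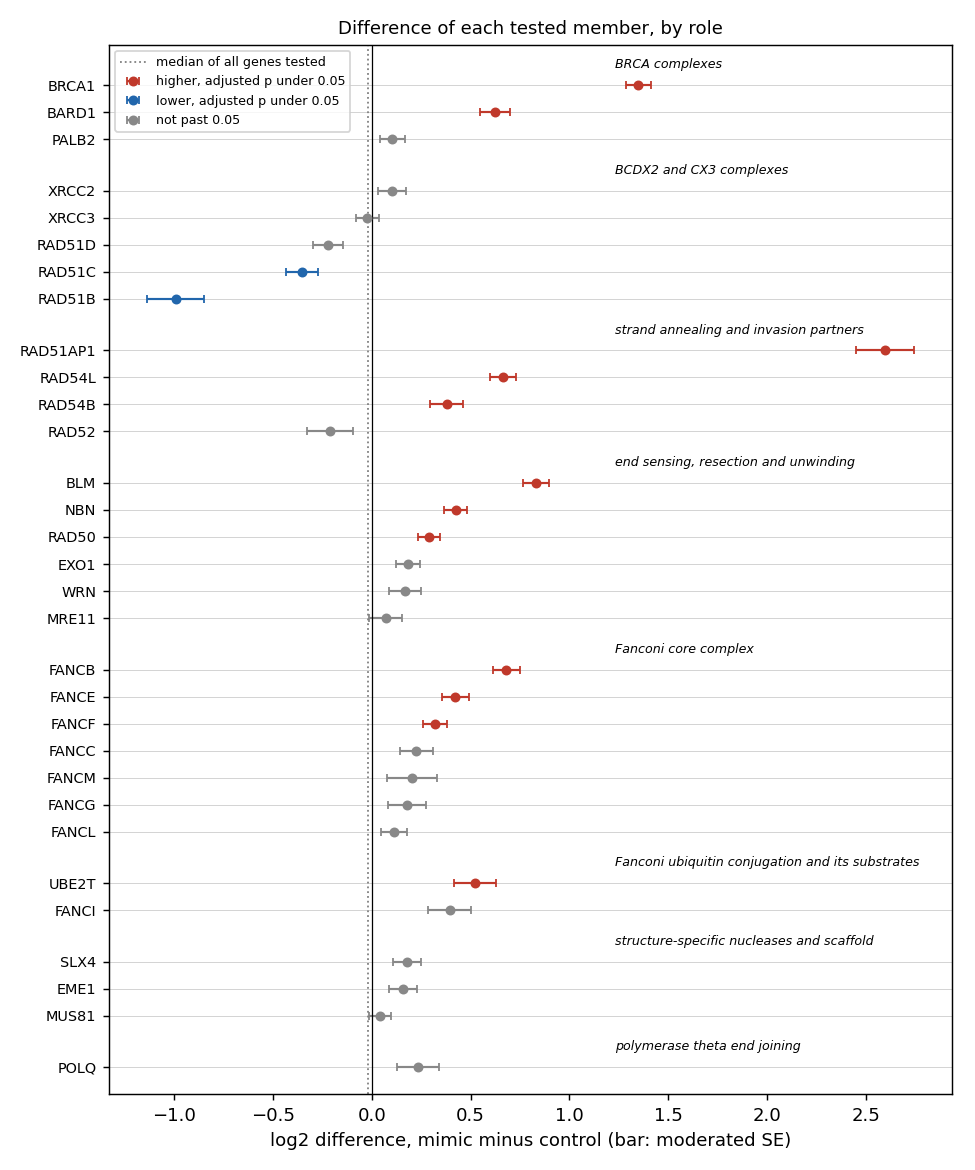
Log2 difference (mimic minus control) of the 31 tested members by role, with the moderated SE as bars and the median of all tested genes, -0.02, as a dotted line. Red members are called higher, blue lower and grey did not pass an adjusted p of 0.05. The members of the BCDX2 and CX3 complexes lie at or below 0.10, and every other role has a median above 0.

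The genes that sense, trim or unwind ends came to 6 tested members, of which 3 rose. All 6 differences were positive, except that MRE11 turned to -0.042 after a further quantile normalization and to -0.026 without control replicate 1. BLM, a helicase that acts in resection and in undoing joint molecules, read 5.78 and 5.67 in the mimic samples and 4.92 and 4.88 in the controls. Mimic and control values did not overlap. BLM rose by 0.83 ± 0.067 (SE, 1.78-fold, adjusted p = 0.00239).

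In the complex that senses breaks, NBN, which brings in the ATM kinase, rose by 0.43 (adjusted p = 0.00843). RAD50, which tethers ends, rose by 0.29 (adjusted p = 0.0209). The nuclease MRE11 differed by 0.07 (95% confidence interval -0.14 to 0.28) and did not pass. EXO1, which resects long stretches, differed by 0.18 and the helicase WRN by 0.17, and neither passed (adjusted p = 0.0764 and 0.171).

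The Fanconi core complex, whose members carry or hold the ubiquitin ligase FANCL on DNA, came to 7 tested genes, all with a positive difference, with a median of 0.23, and 3 rose. FANCB, encoded on the X chromosome and a partner of FANCL, read 4.98 and 4.87 in the mimic samples and 4.23 and 4.26 in the controls. The 2 groups were separate. FANCB rose by 0.68 ± 0.067 (SE, 1.60-fold, adjusted p = 0.00386).

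FANCE, which contacts FANCD2, rose by 0.42 (adjusted p = 0.0129), a call lost without _s_at and _x_at probe sets, whose probes can match several transcripts (0.17, adjusted p = 0.156). The adaptor FANCF rose by 0.32 (adjusted p = 0.0209). FANCC, which joins them in a subcomplex, read 5.61 and 5.79 in the mimic samples and 5.52 and 5.43 in the controls. Its difference of 0.23 ± 0.084 (SE) did not pass (adjusted p = 0.0999), with a 95% confidence interval of 0.01 to 0.44. The translocase FANCM differed by 0.20, FANCG by 0.18 and FANCL itself by 0.11, and none passed.

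UBE2T, the conjugating enzyme that works with FANCL, read 8.53 and 8.49 in the mimic samples and 7.85 and 8.13 in the controls. It rose by 0.52 ± 0.11 (SE, 1.44-fold, adjusted p = 0.0234). The controls were less alike (SD 0.20) than the mimic samples. FANCI, which is modified together with FANCD2, read 7.18 and 7.20 in the mimic samples and 6.65 and 6.94 in the controls. Its difference, 0.39 ± 0.11 (SE), narrowly missed the threshold (adjusted p = 0.0516), with a 95% confidence interval of 0.11 to 0.68. FANCI was called higher in 5 of the 13 alternatives tried.

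None of the 3 nuclease genes passed limma's test, and each had a 95% confidence interval that held 0. SLX4, the scaffold, differed by 0.18, EME1 by 0.16 and MUS81, the catalytic partner of EME1, by 0.04. The interval for MUS81 was -0.10 to 0.19. POLQ, the polymerase of an end joining route used when recombination fails, read 6.97 and 7.09 in the mimic samples and 6.66 and 6.92 in the controls. The mimic values were higher on both arrays, but control replicate 2 lay close to them. The difference was 0.23 ± 0.11 (SE, adjusted p = 0.152, 95% confidence interval -0.04 to 0.51).

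The 33 genes had 87 probe sets, of which 64 passed the filter and 23 were dimmer. In the fit across all 31711 passing probe sets, 22 of the 64 were higher, 4 were lower and 38 did not pass. Over all probe sets 14.5% were called higher and 7.95% lower, 22.4% in all. The groups did not overlap for 42 member probe sets that were higher and 9 that were lower. Over all probe sets these shares were 33.4% and 33.2%, or 66.6% in all. The members' median was 0.18, that of all probe sets -0.01. A single probe set that listed a member beside other genes was left out. Adjusted p-values in the next 3 paragraphs come from this fit.

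RAD51C had 3 passing probe sets that did not move together. Beside the brightest, which was lower (-0.35, adjusted p = 0.0408), another read 7.88 and 7.84 in the mimic samples and 5.94 and 6.00 in the controls. In intensity this was 234.8 and 229.2 against 61.5 and 63.8. That probe set was 1.89 ± 0.065 higher (SE, 3.70-fold, adjusted p = 0.00118). A further one read 7.18 and 7.08 against 5.22 and 5.44, a difference of 1.80 ± 0.099 (SE, 3.48-fold, adjusted p = 0.00157). The annotation used here gave each of these probe sets only the symbol RAD51C, and which transcripts each one measures was not examined. With the mean of its probe sets in place of the brightest, RAD51C was 1.11 higher (adjusted p = 0.00109 over genes). Whether different transcripts of RAD51C changed in opposite directions was not tested.

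RAD51AP1 had 4 passing probe sets, all higher in the mimic samples, by 2.60 for the brightest and by 2.70, 1.58 and 0.51 for the others. The smallest of these did not pass (adjusted p = 0.0647). The probe sets at 2.60 and 2.70 carry the suffix _s_at. Without probe sets of the suffixes _s_at and _x_at, RAD51AP1 stood by the smallest and was not called (0.51, adjusted p = 0.0552 over genes). Of the 5 probe sets of BRCA1, the 4 that passed the filter were called higher, by 1.36, 1.35, 0.91 and 0.63, and the fifth was dim, with the same value on every array. Those at 1.36, 1.35 and 0.63, among them the brightest, carry the suffix _x_at. The probe set at 0.91 (1.88-fold, adjusted p = 0.0490) does not, and its controls, 3.04 and 3.70, lay near the level filter.

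Both passing probe sets of RAD51B were lower, by -0.99 and -0.45. For RAD52, all 12 probe sets had a negative difference, from -0.46 to -0.09. Of these, 6 passed the filter and 1 was called lower (-0.45, adjusted p = 0.0254). For NBN, 2 of 5 passing probe sets were called higher (differences of 0.02 to 0.43). The same count was 2 of 3 for RAD50 (0.22 to 0.31), 2 of 3 for FANCF (0.09 to 0.60) and 1 of 3 for FANCE (0.03 to 0.42). Of the 16 members with several passing probe sets, 3 had differences of both signs (RAD51C, RAD51D and POLQ), and in 2 (RAD51C and RAD51AP1) they lay over 1 apart.

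**Figure D4:**
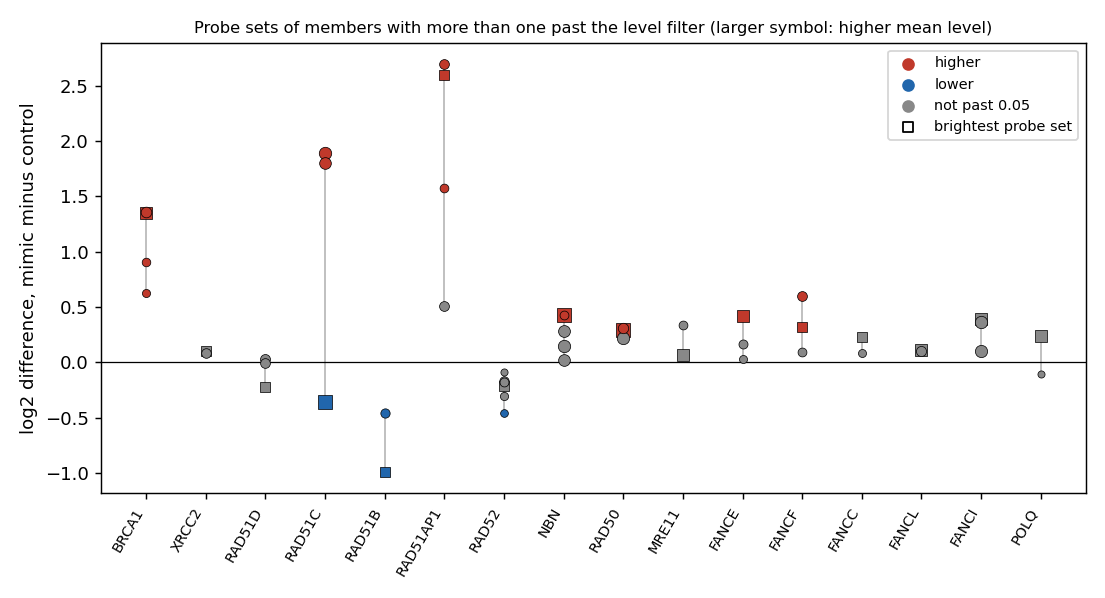
Log2 difference (mimic minus control) of each probe set past the level filter for the 16 members that had several, with the brightest probe set as a square and larger symbols for higher mean levels. Those of RAD51C lie on both sides of 0, at -0.35, 1.80 and 1.89, while those of BRCA1 are all above 0 and those of RAD51B and RAD52 all below.

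Other genes of the pathways were taken from a list of 56 that are not members. Of the list, 51 had a probe set given to a single gene and 50 were tested. Of these, 12 (24.0%) were higher and 3 (6.00%) were lower, with a median difference of 0.13 (limma, adjusted over all genes). Over all genes these shares were 17.7% and 12.3%, and the list's 15 calls in either direction were close to the 30.1% of all genes. The count fell to 0 when either mimic replicate was left out (unadjusted p under 0.05 for 18 and 15, or 36.0% and 30.0%, against 29.3% and 29.8% of all genes), to 3 without control replicate 1 and to 8 without control replicate 2.

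RMI1, a partner of BLM in dissolving joint molecules, rose by 0.99 (adjusted p = 0.00157). REV3L, the catalytic subunit of a polymerase that copies past damage, rose by 0.95 (0.00291). MND1, a strand exchange cofactor best known from meiosis, rose by 0.85 (0.00551), and FIGNL1, an ATPase of recombination, by 0.82 (0.00591). USP1, which removes ubiquitin from FANCI and FANCD2, rose by 0.73 (0.00293), and CENPS, which holds FANCM on DNA, rose by 0.73 (0.0212). The 3 lower genes were BABAM2, a subunit of the BRCA1-A complex (-0.49), the helicase HELQ (-0.45) and ZSWIM7, a partner of SWSAP1 (-0.38).

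A list of end joining and end protection genes covered the route that rejoins ends without a template. Of 26 listed, 22 had a probe set given to a single gene. Among the 21 tested, with a median of 0.07, none fell and 4 (19.0%) rose. These were MDC1 (0.84, adjusted p = 0.00395), a scaffold at breaks, DCLRE1C (0.75, 0.00395), the Artemis nuclease, PRKDC (0.73, 0.00905), the kinase that holds ends, and RIF1 (0.42, 0.0147), which limits resection. Their share is close to the 17.7% of all genes called higher. In either direction 30.1% of all genes were called, against 19.0% of this list. No end joining gene was lower at an adjusted p under 0.05 by limma, where 12.3% of all genes were. In either direction 6 of the 21 (28.6%) had an unadjusted p under 0.05 by limma, against 45.0% of all genes. Fewer end joining genes were called with any 1 array left out. The list's median difference was then 0.09 with either mimic replicate left out, 0.04 without control replicate 1 and 0.10 without control replicate 2.

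Promoters were read from the RefSeq table of build GRCh38.p14, as windows from 250 bases before to 50 after each listed start, 300 bases in all. Windows were found for 32 of the 37 members (41 windows). Motifs known from cell cycle promoters were searched on both strands: the CCAAT box (CCAAT), the CHR element (TTTGAA or TTCGAA) and E2F sites (TTTCCCGC or TTTGGCGC), which do not contain each other. CCAAT was found for 13 of 32 members (40.6%), close to the 39.7% of all 27305 genes in the table. It was there for 6 of 10 higher members, 5 of 15 that did not pass and 0 of 2 lower ones. The CHR letters were found for 4 members (12.5%, against 19.5% of genes) and the E2F letters for 3 (FANCD2, XRCC2 and FANCC, 9.38%, against 2.75%). The level of FANCD2 was not analysed here, and neither XRCC2 nor FANCC passed.

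The 100 bases just before the start are shown for the 5 higher members with CCAAT on either strand in that stretch, the motif in capitals (ATTGG on the other strand). Each reads 5′ to 3′ along the gene. They lie at chr12:4538790-4538889 (plus) for RAD51AP1, chr15:90717246-90717345 (plus) for BLM, chr1:46247588-46247687 (plus) for RAD54L, chr1:202341937-202342036 (minus) for UBE2T and chr11:22625824-22625923 (minus) for FANCF.
RAD51AP1: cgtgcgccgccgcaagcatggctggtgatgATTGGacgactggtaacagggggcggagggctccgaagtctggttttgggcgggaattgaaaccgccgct
BLM: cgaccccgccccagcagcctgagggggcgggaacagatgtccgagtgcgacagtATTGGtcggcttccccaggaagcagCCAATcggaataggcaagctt
RAD54L: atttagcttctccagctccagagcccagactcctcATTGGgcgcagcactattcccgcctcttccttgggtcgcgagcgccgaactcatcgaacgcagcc
UBE2T: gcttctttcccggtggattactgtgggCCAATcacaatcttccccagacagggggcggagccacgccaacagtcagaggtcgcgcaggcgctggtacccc
FANCF: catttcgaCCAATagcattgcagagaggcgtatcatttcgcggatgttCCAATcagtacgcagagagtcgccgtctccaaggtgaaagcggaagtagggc
RAD51AP1, RAD54L and UBE2T each hold 1 such match in the stretch shown, and BLM and FANCF hold 2. A match is a description of letters, and binding at these promoters was not tested.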

How the data were processed

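RNA from 4 samples of SCC-15 cells, 2 per group, was measured on 1-colour arrays from 2 µg of total RNA, per the labels' protocols. The authors deposited 1 linear intensity per probe set and array, made with RMA per the submitters' processing notes. Which RMA software and settings were used is not given in the sources used here. RMA makes array distributions more alike, so differences are relative to all genes. The deposited distributions were still not identical. A further quantile normalization changed the share of higher calls among all calls from 59.0% to 44.0%.

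Of 49293 probe sets, 44988 had 1 gene symbol, 1832 several and 2473 none; 44961 were renamed by gene identifier through RefSeq (GRCh38.p14) and 27 kept their symbol. Log2 was taken, the lowest 30% of probe sets (below 2.83, an intensity of 7.10) were left out, and the brightest remaining probe set stood for a gene. limma 3.58.1 (R 4.3.3; lmFit, eBayes) compared the groups with no replicate block, adjusting p-values by Benjamini-Hochberg over 14340 genes, or over 31711 probe sets, and a threshold of 0.05. The procedure was tested on simulated data. Precision is limited by the number of arrays.

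Members and lists were chosen with earlier results of these data known. Full values were given for members past the threshold with a difference of 0.5 or more and for the 3 largest that missed it, and the 6 largest passing genes were named from each other list; the genes lower in the first list were added after their values were seen, as was RAD51C, whose probe sets disagree. Alternatives changed the normalization, filter, scale, variance model, probe set choice, replicate block and, in turn, each array.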

Additional observations from a re-analysis of the deposited data

How the results depend on the processing

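Besides the omission of arrays, 9 alternatives were run (a replicate block, further quantile normalization, median centring, no filter, a 50% filter, log2(intensity + 16), trended robust variances, the mean of a gene's probe sets, and no _s_at or _x_at probe sets). Over these and the 31 members, 263 of 278 values kept direction and side of the threshold, 6 lost and 6 gained the call, and 3 changed sign. These were RAD51C (1.11 with the mean of its probe sets, -0.35 by the brightest) and, with no call either way, MRE11 (-0.042) and MUS81 (-0.033) after further quantile normalization. With 1 array left out, XRCC3 (-0.054 to 0.011) and MRE11 (-0.026 to 0.17) also changed sign, uncalled. XRCC2 had no probe set without the suffixes. Leaving out 1 array gave 0 to 963 calls over all genes and 0 to 6 member calls. It gave 0 to 0 of 26 member probe sets, 0 to 8 of 15 other recombination and Fanconi genes and 0 to 1 of 4 end joining genes. The median difference of the 64 member probe sets was then 0.19 to 0.22, and that of all probe sets was -0.02 to 0.001. With 1 array left out, the loss of calls was as complete over all probe sets as over the member probe sets. That loss therefore does not set the members apart. A lone array was assumed to vary like the other group. With the replicate number as a block, 11 members were called (RAD50, RAD51C and RAD54B were lost), 14 and 4 genes of the other lists, and 2918 genes against 4310. Of the 64 member probe sets, 18 (28.1%) were called, against 40.6% without the block. For all probe sets these shares were 12.0% and 22.4%. Same-numbered arrays did not deviate together (correlation -0.001), so the numbers did not show a pairing. Further quantile normalization turned the share of higher calls among all calls from 59.0% to 44.0%, and members from 12 higher and 2 lower to 11 and 3. No detection calls were used, so low values cannot be told from background.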
